A study of Homo sapiens with 6 samples.

Results

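The 36 genes described here belong to the interferon response and to the sensing of foreign nucleic acids, and were chosen by name. Of these, 27 had a row named by the annotation of the array platform, with exactly 1 row each. The other 9, IFNAR1, STAT2, OAS1, OAS2, OAS3, MX1, IFI6, IFI27 and CMPK2, had no named row and are not analysed here. The 27 genes stand among 14884 named genes on the same arrays.

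RNA came from A549, an established human lung cancer cell line, collected 48 hours after lipid transfection (Lipofectamine RNAiMAX) of 1 of 3 siRNA preparations. The groups were a control siRNA (labelled siNC), MYEOV siRNA 1 (siMYEOV #1) and MYEOV siRNA 2 (siMYEOV #2), with 2 arrays each. All 6 samples had thus received both an siRNA and the lipid reagent, and no untransfected cells are analysed here, so levels describe transfected cells and differences describe one siRNA against another. Nothing in the labels says whether the 2 arrays of a group came from separate transfections, so a p-value here measures array-to-array spread alone, and that spread may be technical.

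Cells detect foreign RNA with the helicases RIG-I (gene RIGI) and MDA5 (IFIH1) in the cytosol, with TLR3 in endosomes and with the kinase PKR (EIF2AK2). The helicases signal through the adaptor MAVS to the transcription factors IRF3 and IRF7, which switch on interferon genes. Secreted type I interferon binds its receptor, of which IFNAR1 is a chain, and the kinases JAK1 and TYK2 then pass the signal on. STAT2 and IRF9 act in a complex that binds the interferon-stimulated response element (ISRE) in the promoters of stimulated genes such as the IFIT, OAS and MX families. Double-stranded RNA, siRNA included, can engage these sensors.

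The targeted gene, MYEOV, gave log2 signals of 6.20 and 6.50 under the control siRNA. It gave 5.34 and 5.19 under siRNA 1 and 5.23 and 4.70 under siRNA 2. All 4 arrays of the MYEOV siRNAs thus lay below both control values. The differences from control were -1.09 with siRNA 1 and -1.39 with siRNA 2 (adjusted p = 0.0215 and 0.00516, by the limma test described below). The group means of 5.27 and 4.96 lay below 5.85, the control background level described in the next paragraph, so the size of the fall is approximate. Array medians over all rows lay between 4.08 and 4.10. Of 12 lung epithelial and A549 markers, 4 had a row (KRT8, KRT18, KRT7 and EPCAM) and 4 were above the background level defined next; the other 8, which include CDH1 and the aldo-keto reductases, had no named row. Of 10 leukocyte markers, 4 had a row, and CD14, CD163 and NCAM1 were not above that level, while CD68, which is not restricted to leukocytes, was. The summed log2 signal of the 4 leukocyte rows ran from 19.3 to 20.2 under the control siRNA, from 19.7 to 20.1 under siRNA 1 and from 20.4 to 20.7 under siRNA 2. That of the 4 epithelial rows was 34.2 and 34.3 under the control siRNA, 34.2 in both siRNA 1 arrays, and 33.5 and 33.9 under siRNA 2. In both sums the siRNA 2 arrays lay outside the range of the other groups. For the leukocyte rows this gap was smaller than the spread of the 2 control arrays, in which CD14 had 3.67 and 4.53. The epithelial markers moved in different directions. By group means KRT8, KRT18 and KRT7 were lower with siRNA 2 than in the control, while EPCAM went from 7.01 to 7.24. CD68 went from 9.39 to 9.43, and CD14, CD163 and NCAM1, not above background, were also higher. The part of these markers in the results was not tested.

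Most of the 27 members gave control signals in the range of genes not expected in these cells, as did most of all named genes. This is therefore not read as particular to the members. As background served 85 keratin-associated protein genes, which belong to hair; the 95th percentile of their control means was 5.85 on the log2 scale and their median 3.22. In the control arrays 10 of the 27 members exceeded 5.85 (37.0%, against 44.1% of all named genes) and 17 did not. Probes differ in how well they bind, so the level of a gene against this line is approximate and the levels of different genes are not ranked here. Over all 6 arrays the 17 dim members lay between 1.75 and 5.92.

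Above background in the control were the sensors RIGI, EIF2AK2 and DDX60, the adaptor MAVS, the signalling genes JAK1, IRF3 and IRF9, and 3 stimulated genes, IFIT5, IFI35 and USP18. Of these, DDX60 and IRF9 lay just above the line, at control means of 6.06 and 5.98. Both were below the 99th percentile of the background genes, 6.52. ISG15 and HERC5 lay just below the line, at control means of 5.74 and 5.55, and TLR3 at 5.10. IRF7, OASL and ISG20 had control means of 4.98, 4.90 and 4.75. IFIT1, IFIT2 and IFIT3, which bind foreign RNA or partner those that do, had 3.47, 3.97 and 4.10, IFITM1 had 3.92, XAF1 3.78 and the GTPase MX2 3.75. RSAD2, BST2, IFI44L and IFI44 were below the median of the background genes, at 3.14, 2.40, 2.22 and 2.13. Against the background level of each group, TLR3 lay above it under siRNA 1 alone, and DDX60 lay above it in 2 of the 3 groups.

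**Figure D1:**
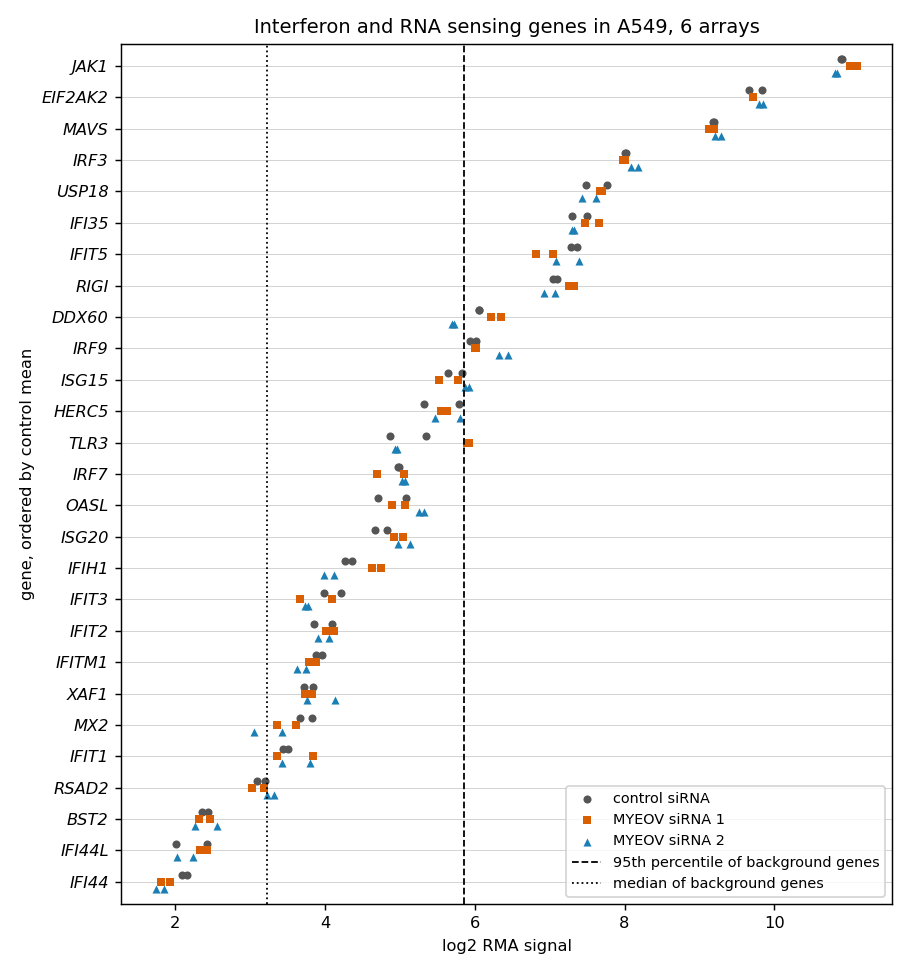
Log2 RMA signal (x axis) of the 27 members with a named row (y axis), with a point for each of the 6 arrays: control siRNA as circles, MYEOV siRNA 1 as squares and MYEOV siRNA 2 as triangles. The dashed line is the 95th percentile of the 85 background genes in the control (5.85) and the dotted line their median (3.22). In the control 10 members lie to the right of the dashed line, and TLR3 reaches 5.92 and 5.90 under siRNA 1.

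Many members have the ISRE in their promoters. Many were chosen as interferon-stimulated genes, so a high share goes with that choice and is no result of these arrays. RefSeq promoter windows (GRCh38.p14, 250 bases before to 50 after the start of a transcript) were listed for 29 of the 36 members, all but IRF3, IRF7, OAS2, OASL, IFIT2, MX2 and USP18. The ISRE core, GAAA then any 2 bases then GAAA, searched on both strands, was in 18 of the 29 windows (62.1%) and in 3.65% of all 27305 windows of this length. The gamma-activated sequence TTCNNNGAA, which reads the same on both strands, was in 8 of 29 (27.6%) and in 7.88% of all. In 5 windows both motifs were found, 13 held more than 1 ISRE core, and 4 pairs of ISRE matches overlapped. A match describes letters in the window and does not show that a factor binds there.

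The windows of 5 members with different behaviour in these arrays are shown. DDX60 differed between the siRNAs, and IFIH1 did so when dim genes were tested too. For ISG15 and IFIT1 no comparison passed the test. IRF9 changed and held no ISRE core in its window. All stretches lie before the start and are read 5′ to 3′ on the strand of the gene. Any ISRE core, on either strand, is in capitals.
DDX60, chr4:168318781-168318855, minus strand: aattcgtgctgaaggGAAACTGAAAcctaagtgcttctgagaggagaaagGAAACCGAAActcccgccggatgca
IFIH1, chr2:162318685-162318858, minus strand: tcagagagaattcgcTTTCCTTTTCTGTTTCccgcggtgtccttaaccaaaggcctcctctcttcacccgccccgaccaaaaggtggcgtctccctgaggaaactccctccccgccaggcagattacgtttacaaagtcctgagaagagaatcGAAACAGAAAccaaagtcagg
ISG15, chr1:1013369-1013414, plus strand: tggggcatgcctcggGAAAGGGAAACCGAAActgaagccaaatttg
IFIT1, chr10:89392492-89392544, plus strand: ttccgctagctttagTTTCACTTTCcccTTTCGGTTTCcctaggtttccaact
IRF9, chr14:24161165-24161264, plus strand: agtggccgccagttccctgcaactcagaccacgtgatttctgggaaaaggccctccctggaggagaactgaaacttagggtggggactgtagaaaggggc

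DDX60 holds 2 separate cores, IFIT1 2 in the opposite orientation and ISG15 2 that overlap, while IFIH1 has an overlapping pair that begins at -159 and -153 and another core at -21, counted from the start. The IRF9 stretch holds a gamma-activated sequence. Of the 14 members with an ISRE core and a row, 3 were above background in the control, EIF2AK2, DDX60 and IFIT5. Of the 7 with a window, a row and no ISRE core, 5 were (RIGI, MAVS, JAK1, IRF9 and IFI35). Of all named genes 44.1% were. Members with a row but no window, USP18 and IRF3 among them, are in neither count. Whether motif and level go together was not tested.

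Differences between the groups were tested with limma over the 7442 brighter named genes, those with a 6-array mean of at least 5.45 (the median named gene), with Benjamini-Hochberg adjustment over all of them and a call at an adjusted p under 0.05. Of the 27 members 12 entered this test, and 15 were too dim. The dim members are given with values from a fit of all 14884 named genes without that filter, in which far fewer genes can pass. Differences are on the log2 scale. For dim genes such differences can understate a real change, or the signal can be background alone, which was not tested. With 2 arrays a group, the smallest p of an exact permutation test is 0.333, so every call rests on the spread that limma shares between genes.

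Among the RNA sensors, DDX60 was the one whose differences passed this test. DDX60, a helicase that promotes RIG-I signalling, had signals of 6.05 and 6.06 in the control, 6.22 and 6.35 under siRNA 1, and 5.72 and 5.70 under siRNA 2. The groups did not overlap, and the control lay between the 2 MYEOV siRNAs. With siRNA 2 its log2 signal fell by 0.35 (limma adjusted p = 0.0376, with a 95% confidence interval from -0.52 to -0.18), so that the linear signal fell by 21.4%. The difference of 0.23 with siRNA 1 did not pass (interval 0.06 to 0.40, adjusted p = 0.139). Between the MYEOV siRNAs DDX60 was higher with siRNA 1 by 0.58 ± 0.07 (SE; adjusted p = 0.00412), and this call held when any 1 array was left out (adjusted p = 0.0116 to 0.0396). The call for siRNA 2 against control did not, with adjusted p = 0.126 and 0.118 without control replicates 1 and 2, 0.0551 without either siRNA 1 array, and 0.131 and 0.162 without siRNA 2 replicates 1 and 2.

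IFIH1, which encodes the sensor MDA5, followed the same order at a dimmer level. It had 4.36 and 4.26 in the control, 4.63 and 4.75 with siRNA 1, and 3.99 and 4.12 with siRNA 2, again without overlap between groups. All 6 values were below the background line, and IFIH1 was left out of the filtered test for that dimness. In the fit without a filter it was higher with siRNA 1 than with siRNA 2 by 0.64 ± 0.10 (SE; limma adjusted p = 0.0491). That fit was run under 1 setting only, so whether this call holds with an array left out was not tested. In that fit 1.31% of all genes were called between the siRNAs, 0.262% for siRNA 1 against control and 0.934% for siRNA 2 against control, and of the 15 dim members IFIH1 alone was called, in the first of these. Against the control the differences were 0.38 with siRNA 1 (adjusted p = 0.245) and -0.26 with siRNA 2 (adjusted p = 0.368), which did not pass.

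TLR3, the endosomal receptor for double-stranded RNA, had 4.86 and 5.35 in the control, 5.92 and 5.90 with siRNA 1 and 4.96 and 4.94 with siRNA 2. Both siRNA 1 arrays were above the other 4, while the siRNA 2 arrays lay within the range of the control arrays. In the fit without a filter its difference was 0.81 with siRNA 1 against control (interval 0.41 to 1.20, adjusted p = 0.156) and 0.96 between siRNA 1 and siRNA 2 (interval 0.57 to 1.35, adjusted p = 0.0599). Neither passed the threshold, although these were the largest differences of any member in their comparisons. The control mean of TLR3 was 5.10 ± 0.34 (SD, n = 2), a wide spread beside that of the siRNA 1 arrays, 5.91 ± 0.02 (SD, n = 2).

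RIGI itself moved less. Its signals were 7.05 and 7.10 in the control, 7.33 and 7.26 with siRNA 1 and 6.93 and 7.07 with siRNA 2, and both siRNA 1 arrays lay above the other 4. The differences of 0.22 with siRNA 1 against control (interval 0.03 to 0.40, limma adjusted p = 0.181) and 0.29 between the MYEOV siRNAs (interval 0.11 to 0.47, adjusted p = 0.0632) did not pass. The remaining sensing members, EIF2AK2 and MAVS, were bright and nearly level. EIF2AK2 ran from 9.67 to 9.85 and MAVS from 9.13 to 9.29 over the 6 arrays. The intervals for siRNA 1 against control were -0.22 to 0.15 for EIF2AK2 and -0.19 to 0.14 for MAVS.

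Among the signalling genes IRF9 rose with siRNA 2. Its signals were 5.94 and 6.01 in the control, 5.997 and 6.02 with siRNA 1 and 6.33 and 6.45 with siRNA 2, so that both siRNA 2 arrays exceeded the other 4. The rise with siRNA 2 was 0.41 ± 0.07 (SE; limma adjusted p = 0.0224), a signal 32.9% higher, and siRNA 1 was lower than siRNA 2, at -0.38 (interval -0.56 to -0.20, adjusted p = 0.0234). IRF9 thus moved in the opposite direction to DDX60 with siRNA 2. In the fit without a filter IRF9 was called in neither comparison. Against the control the call was lost without control replicates 1 and 2 (adjusted p = 0.109 and 0.0671), either siRNA 1 array (0.0516) and siRNA 2 replicates 1 and 2 (0.0556 and 0.126). Between the siRNAs it was lost without siRNA 1 replicates 1 and 2 (0.120 and 0.109) and siRNA 2 replicates 1 and 2 (0.0543 and 0.127).

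JAK1, the kinase at the interferon receptor, had 10.89 and 10.91 in the control, 11.11 and 11.01 under siRNA 1 and 10.81 and 10.83 under siRNA 2. The 3 groups did not overlap, but the spread was small, and the difference of 0.23 between the siRNAs had a limma adjusted p of 0.0884. IRF3, which MAVS signalling activates as a protein, ran from 7.98 to 8.18 and passed in no comparison. IRF7, itself induced by interferon, was dim, from 4.70 to 5.07, with overlapping arrays of siRNA 1 and both other groups.

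The tested members not yet described, the stimulated genes IFIT5, IFI35, USP18, ISG15 and HERC5, passed in no comparison. IFIT5 had 7.28 and 7.37 in the control, 7.05 and 6.82 with siRNA 1 and 7.08 and 7.40 with siRNA 2, and its difference of -0.39 with siRNA 1 (interval -0.68 to -0.10, limma adjusted p = 0.140) was the most negative of the tested members in that comparison. IFI35 ran from 7.30 to 7.66, and USP18, the protease that removes ISG15 and damps receptor signalling, from 7.44 to 7.76. ISG15, the ubiquitin-like modifier, had 5.64 and 5.83 in the control, 5.53 and 5.78 with siRNA 1 and 5.92 and 5.87 with siRNA 2. Its difference with siRNA 2 was 0.16 (interval -0.09 to 0.41, adjusted p = 0.445). HERC5, the ligase that attaches ISG15, had 5.79 and 5.32 in the control, and the other 4 arrays ran from 5.47 to 5.80.

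The dim stimulated genes showed no common direction. In the fit without a filter, OASL, a relative of the OAS enzymes, had 4.71 and 5.09 in the control and 5.25 and 5.33 with siRNA 2, a difference of 0.39 (limma adjusted p = 0.350). ISG20, an exonuclease, differed by 0.31 with siRNA 2 (adjusted p = 0.334). On the other side MX2 had 3.82 and 3.67 in the control and 3.06 and 3.43 with siRNA 2, a difference of -0.50 (adjusted p = 0.277). IFIT3, IFI44 and IFITM1 differed by -0.34, -0.32 and -0.24 with siRNA 2. IFIT1 and IFIT2, from the same gene cluster as IFIT3, differed by 0.14 and 0.01, and BST2 and RSAD2 by 0.01 and 0.13. With siRNA 1, OASL, ISG20, MX2, IFIT3, IFI44 and IFITM1 differed from the same control arrays by 0.09, 0.23, -0.26, -0.22, -0.26 and -0.09. These have the signs seen with siRNA 2. IFIT1 and IFIT2 differed by 0.13 and 0.10 with siRNA 1, and BST2 and RSAD2 by -0.01 and -0.04. None of these passed.

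Counted over the list, 0 of 12 tested members were called for siRNA 1 against control, against 4.66% of all genes tested. At an unadjusted p under 0.05 there were 3 (DDX60, RIGI and IFIT5), beside 19.2% of all genes, and the alternative limma settings also called 0. For siRNA 2 against control 1 member was called higher (IRF9) and 1 lower (DDX60), where 6.83% of all genes were called, and these 2 were also the members at an unadjusted p under 0.05, beside 22.2% of all genes. The same 2 genes were called between the MYEOV siRNAs, where 9.15% of all genes were called, and 6 members had an unadjusted p under 0.05, beside 23.6% of all genes. With 12 genes tested, 1 gene is a large share of the list, and these counts are not read as particular to it. The median difference of the tested members was 0.03, -0.01 and -0.06 in the 3 comparisons, in the order siRNA 1 against control, siRNA 2 against control and siRNA 1 against siRNA 2, and that of all genes was 0.00 in each when rounded. Without regard to sign, the median difference was 0.072, 0.086 and 0.239 in the same order, beside 0.097, 0.104 and 0.106 for all genes. The comparisons with the control share its 2 arrays.

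**Figure D2:**
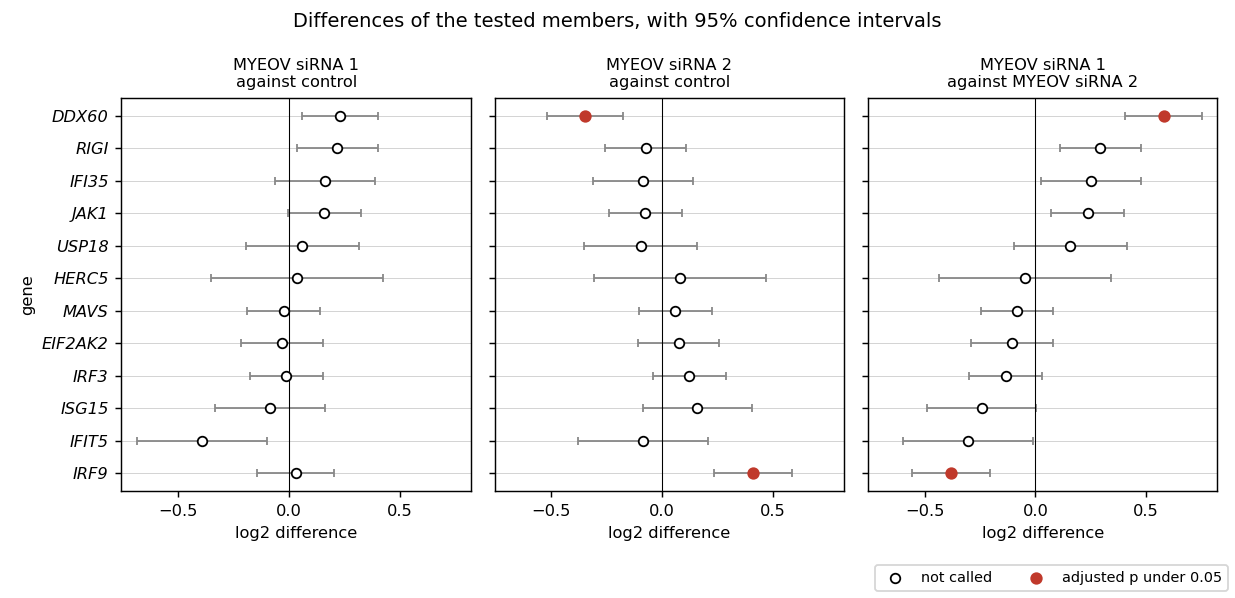
Log2 difference (x axis) of each of the 12 tested members (y axis), with 95% confidence intervals from limma, in the 3 comparisons; filled points have an adjusted p under 0.05. DDX60 and IRF9 are the filled points, at -0.35 and 0.41 for siRNA 2 against control and 0.58 and -0.38 for siRNA 1 against siRNA 2, and no point is filled for siRNA 1 against control.

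Whether the 2 arrays of a group both lay beyond the 2 arrays of another was also counted for all 27 members, which needs no filter. For siRNA 1 against control this held for 9 members (33.3%), 6 higher and 3 lower, against 41.6% of all named genes. For siRNA 2 against control it held for 15 (55.6%), 8 higher and 7 lower, against 42.3%. Between the MYEOV siRNAs it held for 17 (63.0%), 9 higher and 8 lower with siRNA 1, against 44.8%. In each comparison members were thus found on both sides.

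Other genes of the pathway came from a list of 132, of which 71 had a row and 45 were tested. The interferon genes themselves are among the 61 without a named row. In this wider list 1 gene was called higher and 1 lower for siRNA 1, 0 higher and 4 lower for siRNA 2, and 6 higher and 0 lower for siRNA 1 against siRNA 2, against 2.28% higher and 2.38% lower, 2.59% and 4.23%, and 5.37% and 3.78% of all genes. Its median difference was 0.06, -0.03 and 0.09. The 4 chemokines of the list that interferon or viral RNA induces, CXCL9, CXCL10, CXCL11 and CCL5, named here after their values were seen, were too dim to test, from 1.83 for CXCL10 to 4.54 for CCL5 over the 6 arrays.

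IRF2, a transcription factor that binds interferon-responsive promoters and is best known as a repressor, fell with siRNA 2. Its signals were 8.42 and 8.38 in the control, 8.31 and 8.31 with siRNA 1 and 7.42 and 7.62 with siRNA 2, and both siRNA 2 arrays lay far below the rest. The fall of IRF2 with siRNA 2 was -0.88 ± 0.08 (SE; limma adjusted p = 0.00162), and the difference between the siRNAs was 0.79 (adjusted p = 0.00195). It was called in both comparisons under every alternative run, with adjusted p up to 0.0247 and 0.0255.

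DDX60L, the neighbour and close relative of DDX60 on chromosome 4, had 7.78 and 8.01 in the control, 8.05 and 7.94 with siRNA 1 and 7.39 and 7.37 with siRNA 2. It fell by 0.51 with siRNA 2 (limma adjusted p = 0.0229) and was 0.61 higher with siRNA 1 than with siRNA 2 (adjusted p = 0.00926), in the same direction as DDX60 both times. The genes are similar in sequence, and whether the probes of either row also bind the other transcript was not tested, so their separate values are uncertain. Against the control the DDX60L call was lost without control replicate 2 (adjusted p = 0.0832) and siRNA 2 replicates 1 and 2 (0.0916 and 0.104), and between the siRNAs without siRNA 1 replicate 1 (0.0685) and siRNA 2 replicate 2 (0.0518).

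TYK2, the partner kinase of JAK1 at the type I receptor, had 6.83 and 6.87 in the control, 6.90 and 6.72 with siRNA 1 and 6.46 and 6.46 with siRNA 2. It fell by 0.39 with siRNA 2 (limma adjusted p = 0.0378) and was 0.35 higher with siRNA 1 than with siRNA 2 (adjusted p = 0.0427). UBE2L6, the conjugating enzyme for ISG15, fell by 0.34 with siRNA 2 (adjusted p = 0.0311) and was 0.31 higher with siRNA 1 than with siRNA 2 (adjusted p = 0.0328). For TYK2 the call against control was lost without control replicates 1 and 2 (0.120 and 0.130) and siRNA 2 replicates 1 and 2 (0.135 and 0.152), and the call between the siRNAs without any 1 of the 6 arrays (0.0621 to 0.196). For UBE2L6 both calls were lost without any 1 of the 6 arrays (0.0653 to 0.167 and 0.0506 to 0.162).

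HERC6, a relative of HERC5, had 6.77 and 6.78 in the control, 7.07 and 7.12 with siRNA 1 and 6.65 and 6.63 with siRNA 2. It rose by 0.32 with siRNA 1 (limma adjusted p = 0.0449) and was 0.46 higher with siRNA 1 than with siRNA 2 (adjusted p = 0.00741). IFNGR2, a chain of the receptor for type II interferon, fell with siRNA 1, from 6.86 and 6.84 to 6.43 and 6.32, at -0.48 (adjusted p = 0.0158), and had 6.62 and 6.57 with siRNA 2. SAMD9, a stimulated gene, had 6.18 and 6.21 in the control, 6.51 and 6.47 with siRNA 1 and 6.06 and 6.22 with siRNA 2, and was 0.35 higher with siRNA 1 than with siRNA 2 (adjusted p = 0.0350). The HERC6 call against control and the SAMD9 call were lost without any 1 of the 6 arrays (0.0807 to 0.222 and 0.0556 to 0.177). The HERC6 call between the siRNAs was lost without siRNA 1 replicate 2 (0.0630), and the IFNGR2 call without control replicates 1 and 2 (0.0779 and 0.0785) and siRNA 1 replicates 1 and 2 (0.0592 and 0.120).

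Some of the larger differences in the wider list did not pass. For siRNA 1 against control, SP110, a nuclear body protein induced by interferon, had 5.53 and 5.74 in the control and 6.10 and 5.95 with siRNA 1, a difference of 0.39 (interval 0.17 to 0.62, limma adjusted p = 0.0738). RNF135, a ubiquitin ligase that activates RIG-I, had 6.78 and 6.996 in the control and 6.39 and 6.56 with siRNA 1, a difference of -0.41 (interval -0.68 to -0.14, adjusted p = 0.103). For siRNA 2 against control the 3 largest of these were negative. SLFN5 had 7.73 and 7.23 in the control and 7.31 and 6.80 with siRNA 2, a difference of -0.43 (interval -0.98 to 0.13, adjusted p = 0.357). WARS1, a tRNA synthetase induced by interferon, differed by -0.36 (adjusted p = 0.187) and TBKBP1, an adaptor of the kinase TBK1, by -0.36 (adjusted p = 0.0807). CYLD, a deubiquitinase that restrains RIG-I signalling, had 7.22 and 7.09 in the control and 7.53 and 7.41 with siRNA 2, a difference of 0.31 (interval 0.11 to 0.51, adjusted p = 0.0792). Of these 6 genes SLFN5 alone had arrays that overlapped between the groups compared. Between the siRNAs the most negative difference was that of TRIM14, -0.38 (interval -0.62 to -0.14, limma adjusted p = 0.0671), without overlap. With only the 2 groups compared fitted, TRIM14 was called lower, beside 3 genes called higher. SLFN5 and TBKBP1 were higher with siRNA 1 than with siRNA 2 by 0.37 and 0.36 (adjusted p = 0.411 and 0.0688).

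**Figure D3:**
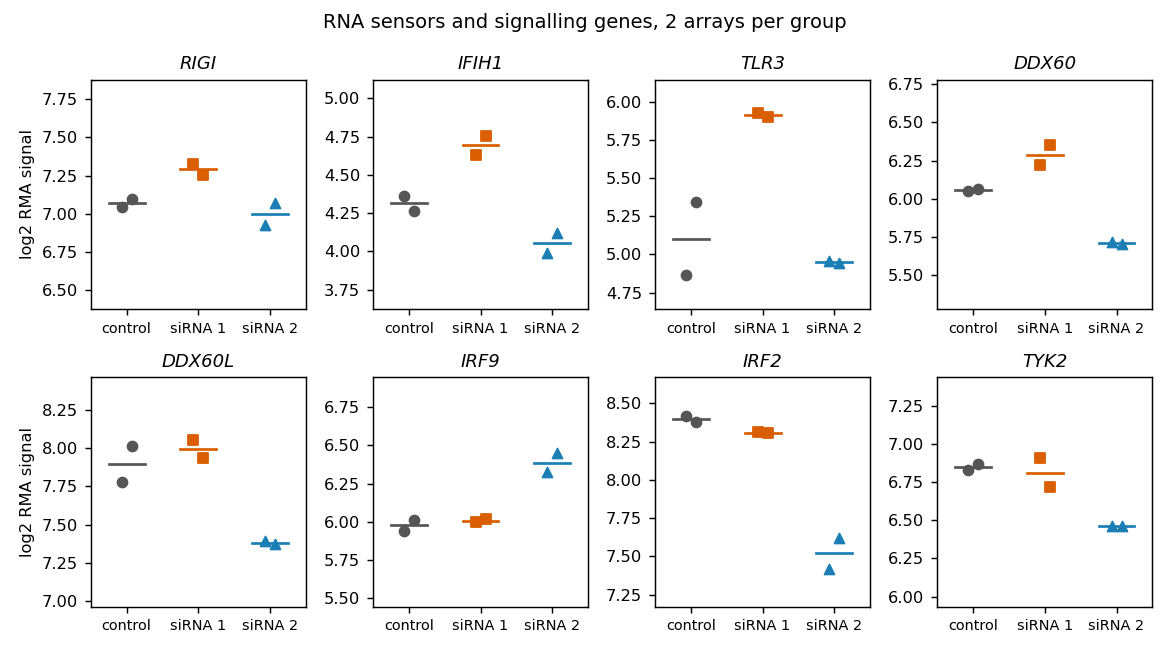
Log2 RMA signal (y axis, each panel spanning the same range of 1.5) in the 2 arrays of each group (x axis), with group means as lines, for the sensors RIGI, IFIH1, TLR3 and DDX60, for DDX60L, and for IRF9, IRF2 and TYK2. The siRNA 1 arrays are the highest for RIGI, IFIH1, TLR3 and DDX60, though none of these passed for siRNA 1 against control. The sensing members EIF2AK2 and MAVS are not shown. They differed by -0.03 and -0.02 for siRNA 1 against control, and by -0.11 and -0.08 for siRNA 1 against siRNA 2. The siRNA 2 arrays are set apart, higher for IRF9 and lower for DDX60, DDX60L, IRF2 and TYK2.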

How the data were processed

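Gene expression was measured on 6 Affymetrix whole-transcript arrays. The deposited log2 signals come from RMA, which the submitters' processing notes name as the authors' method; its version is not given in the sources used here. Of 53617 rows, 16098 had exactly 1 gene symbol, 0 several and 37519 none; all 16098 matched the RefSeq table of GRCh38.p14. Where several rows named a gene (779 genes), the brightest by its mean stood for it. Groups were taken from the sample titles. All arrays entered a single limma fit (version 3.58.1, R 4.3.3; lmFit, then eBayes; 3 residual and 4.09 prior degrees of freedom), and the steps were tested on simulated data. The number of arrays limits the precision. Members and lists were chosen with earlier results of these data known; MYEOV, every member, and of the wider list each called gene and the 4 tested genes per comparison and direction with the largest difference, could be named. The planned background, olfactory receptor genes, had 1 named gene, so the second list was used in its place, of which the keratin-associated protein genes had rows. Alternatives covered the filter, rows per gene, normalization, groups fitted, replicate block, variance prior and each array left out. Figures were drawn with matplotlib 3.10.9.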

Additional observations from a re-analysis of the deposited data

Results flagged for a closer look

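The effects of the 2 MYEOV siRNAs against the shared control differed, by limma's test of siRNA 1 against siRNA 2, for 2 of 12 tested members and 6 of 45 tested genes of the wider list, where 9.15% of all genes were called. Of the members, DDX60 was higher with siRNA 1 by 0.58 and IRF9 differed by -0.38. Of the wider list, IRF2 was higher with siRNA 1 by 0.79, DDX60L by 0.61, HERC6 by 0.46, SAMD9 by 0.35, TYK2 by 0.35 and UBE2L6 by 0.31. IRF9 alone among the 8 was lower with siRNA 1 than with siRNA 2. Groups of 2 arrays are too small for a check of single outlying arrays.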

How the results depend on the processing

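Over 14 alternatives, 32 of the 36 results of the tested members (12 genes in 3 comparisons) kept their side of the threshold under each alternative that tested them, and no called difference reversed. Those that changed were DDX60 and IRF9 for siRNA 2 against control, IRF9 between the siRNAs, and JAK1 between the siRNAs, which was called with the filter set at the 75th percentile (limma adjusted p = 0.0334) and under the trend and robust prior (0.0174; 0.0174 to 0.337 over all alternatives). For siRNA 2 against control the count of 2 members became 0 with no filter, at the 75th percentile filter (which leaves 6 members and neither gene) and when only the 2 groups compared were fitted, and 1 under the trend and robust prior; it was 0 to 0 with an array left out. Between the siRNAs it stayed 2 with no filter, but with IFIH1 in place of IRF9. It was 1 with the 75th percentile filter, and smaller in some fits with an array left out. The wider list's 2 calls for siRNA 1 became 0 with no filter or the stricter one, and 1 with only the groups compared and under the trend and robust prior; 0 to 1 with an array left out. Its 4 calls for siRNA 2 became 1 with no filter, 2 with the 75th percentile filter, 8 with the replicate block, and 1 to 3 with an array left out. Its 6 calls between the siRNAs became 1 with no filter, 3 with the 75th percentile filter and 2 to 4 with an array left out. The cause was not tested, apart from the members that a filter removes.

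All genes called numbered 347, 508 and 681 in the 3 comparisons and 39, 139 and 195 with no filter; with only 2 groups fitted they numbered 331 for siRNA 2 against control, and with an array left out 58 to 235, 207 to 331 and 226 to 618. A lone remaining array was assumed to vary like the other groups. Members above background numbered 14 and 8 with the 90th and 99th percentile, and 9 to 11 with a control array left out. Same-numbered arrays deviated together (correlations of 0.265, 0.205 and 0.251 between groups), but the labels do not pair them; with the replicate block the members called were the same, 0, 2 and 2, and all genes called 420, 702 and 922. In the wider list the block added, for siRNA 2 against control, CYLD as higher and SLFN5, TBKBP1 and WARS1 as lower. With 2 arrays per group and signals near background for most stimulated genes, small changes of those genes were not detectable.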
